A study of Mus musculus with 72 samples.

Results

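The 49 genes described here encode the machinery that takes proteins into the endoplasmic reticulum (ER), attaches N-linked sugars to them and carries them between the ER and the Golgi in coated vesicles. A row of the count table was a member when its identifier mapped to one of the listed symbols in the GENCODE M21 annotation and its mean over all libraries was at least 1 CPM (a gene's counts scaled to a common library total). All 49 symbols met both conditions, out of 51912 genes in the table and 11669 genes at that mean level. The rule itself used no value of the daily course. By role they were 6 translocon genes, 4 genes of the TRAP complex, 5 of the signal peptidase, 6 of the signal recognition particle (SRP) and its receptor, 5 of the oligosaccharyltransferase, 10 of the COPII coat, 7 of the COPI coat, 5 cargo receptors, retrieval receptors and SNAREs, and 1 ER membrane transporter.

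Liver mRNA of male, wild-type C57BL/6J mice was sequenced from its 3′ ends in 72 libraries. The 4 feeding paradigms were arrhythmic feeding with incomplete adaptation, here called incompletely adapted arrhythmic feeding, arrhythmic feeding, night-restricted feeding and ad libitum feeding. Each had 18 libraries, 3 at each of ZT02, ZT06, ZT10, ZT14, ZT18 and ZT22, where ZT is the number of hours after lights on in a day of 12 h light and 12 h dark. Mice of all groups were wild type, began the study at 43 to 49 days of age and had free water, and only their access to food was varied. The labels give both arrhythmic groups the same feeding paradigm. The incompletely adapted group is labelled as not fully adapted, so it is set apart by its response. The sources used here give neither the timing of meals nor the test for adaptation. Nothing in the labels ties replicates to separate animals, so p-values measure the spread between these libraries, which may be technical. The study's question was how much of the rhythmic expression in liver follows the rhythm of eating, and how much the clock of the liver itself. The comparisons below set the course of the secretory genes in each feeding paradigm against the others.

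The secretory route begins when SRP binds the signal peptide of a nascent chain and docks it, through its receptor, at the Sec61 channel of the ER membrane. The TRAP complex and the oligosaccharyltransferase sit beside that channel, the signal peptidase removes the signal peptide, and the oligosaccharyltransferase moves a preassembled sugar tree onto asparagine. COPII coats then bud vesicles from the ER towards the Golgi, and COPI coats bring escaped ER residents and used receptors back. Hepatocytes secrete albumin, clotting factors and lipoproteins through this route, and XBP1, a transcription factor of the unfolded protein response, is known to induce many of its genes.

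To show which regulatory letters lie near the starts of these genes, promoter windows were read from RefSeq (GRCm38.p6), from 250 bases before to 50 bases after each start. The table held a window for 39 of the 49 members and none for the other 10. Motifs were searched on both strands. The XBP1 site was TGACGTGG, the E-box, the element bound by the clock factors CLOCK and BMAL1, was CACGTG, and the cyclic AMP response element was TGACGTCA. The ER stress element was CCAAT and CCACG with any 9 bases between them, and its short form was ATTGG and CCACG with 1 base between them. The XBP1 site and the cyclic AMP response element share TGACGT, and CCACG also begins the reverse strand of the XBP1 site.

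An XBP1 site lay in the windows of 4 of the 39 members, Copb1, Copb2, Sec23a and Sec24d, against 0.676% of all 32851 promoter windows in the table. An E-box lay in those of 4 others, Mcfd2, Sar1a, Sec62 and Ssr1, against 7.15% of all windows. Cope held a cyclic AMP response element (1.79% of all windows), and no member held the ER stress element (0.119%) or its short form (0.0365%). The other 30 members with a window held none of these letters. The 39 members had 42 windows, so shares of members and of windows are not quite alike. The 4 windows with an XBP1 site are shown because they belong to coat genes of both vesicle types. Of the windows with an E-box, those of Ssr1 and Mcfd2 are shown for their daily rhythm under night-restricted feeding and that of Sec62 for its mean level. The window of Sar1a, which passed neither test, is not shown, and a link between E-box and rhythm was not tested. Capitals mark the XBP1 site or the E-box, and each sequence runs 5′ to 3′ on the strand of its gene.
Copb1 (XBP1 site, chr7:114254681-114254768, minus strand): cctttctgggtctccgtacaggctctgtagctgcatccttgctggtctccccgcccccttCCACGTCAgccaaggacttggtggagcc
Copb2 (XBP1 site, chr9:98563713-98563742, plus strand): tcccggaagttCCACGTCAgtgggttggcc
Sec23a (XBP1 site, chr12:59011993-59012022, minus strand): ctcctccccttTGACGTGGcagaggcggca
Sec24d (XBP1 site, chr3:123267410-123267495, plus strand): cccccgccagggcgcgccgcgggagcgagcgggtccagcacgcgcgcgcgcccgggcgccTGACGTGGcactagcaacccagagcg
Ssr1 (E-box, chr13:37994215-37994340, minus strand): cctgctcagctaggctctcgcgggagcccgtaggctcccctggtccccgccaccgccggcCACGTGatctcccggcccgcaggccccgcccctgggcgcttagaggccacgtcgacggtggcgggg
Mcfd2 (E-box, chr17:87265955-87266080, minus strand): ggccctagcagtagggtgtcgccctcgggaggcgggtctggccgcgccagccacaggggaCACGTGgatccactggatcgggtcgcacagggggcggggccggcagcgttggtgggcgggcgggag
Sec62 (E-box, chr3:30792784-30792875, plus strand): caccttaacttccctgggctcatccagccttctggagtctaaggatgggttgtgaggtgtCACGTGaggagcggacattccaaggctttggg
In Copb1 and Copb2 the site lay on the opposite strand (CCACGTCA). The site ran from base -28 to -21 of the start in Copb1, from -7 to 1 in Copb2, from 7 to 14 in Sec23a and from -26 to -19 in Sec24d, where 1 is the first transcribed base. The E-box ran from -72 to -67 in Ssr1, from -73 to -68 in Mcfd2 and from -32 to -27 in Sec62. A match of letters is a description of the window and was not tested as a site in use.

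Total counts per library ran from 6017962 to 7972905 under incompletely adapted arrhythmic, from 5628818 to 7806974 under arrhythmic, from 4342026 to 12286021 under night-restricted and from 6701379 to 11167161 under ad libitum feeding. The 5 hepatocyte markers, Alb among them, summed to a median of 25941, 28308, 28698 and 24365 CPM in the same order. Libraries also differed in how their levels followed base composition, measured as the GC slope, the change in a gene's log2(CPM + 1) against its own mean per standard deviation of the GC content of the last 300 transcript bases. The 5 libraries of largest slope were replicate 1 at ZT02 (0.366), ZT06 (0.368) and ZT22 (0.429) under night-restricted feeding and replicate 1 at ZT10 (-0.297) and ZT14 (-0.274) under incompletely adapted arrhythmic feeding. The 3 night-restricted ones also gave the 3 lowest median levels of the secretory genes among all 72 libraries, and mitochondrial reads were 2.46%, 2.07% and 1.91% of their counts, in a paradigm whose libraries ran from 1.91% to 5.80%. Replicate 1 was the lowest of the 3 night-restricted libraries for 22 to 37 of the 49 members at every time. Median courses and counts of genes past the rhythm and mean-level tests are given with and without these 5. Next in size of slope was replicate 1 at ZT18 under night-restricted feeding (0.269), with 2.87% mitochondrial reads and a median secretory level of -0.33. That library stayed in wherever the 5 were left out, also in the ZT18 medians.

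Under night-restricted feeding the secretory genes as a group stood below their mean at ZT02 and ZT06 and above it at ZT14 and ZT18. Under arrhythmic feeding the median course lay on the other side of the mean at these times. The value described is the median over the 49 genes of log2(CPM + 1) minus each gene's mean over all libraries, averaged over the 3 libraries of a group. Under incompletely adapted arrhythmic feeding it was 0.23 at ZT02, 0.13 at ZT06, 0.20 at ZT10, 0.10 at ZT14, -0.13 at ZT18 and -0.03 at ZT22. Under arrhythmic feeding it was 0.08, 0.23, 0.06, -0.07, -0.13 and 0.11 at the same times. Highest values in both arrhythmic paradigms thus fell in the light, and lowest values at ZT18. Without the libraries of large GC slope the incompletely adapted arrhythmic medians were 0.15 at ZT10 and 0.04 at ZT14.
Under night-restricted feeding the median stood at -0.26 at ZT02, -0.34 at ZT06, -0.07 at ZT10, 0.11 at ZT14, 0.09 at ZT18 and -0.15 at ZT22. Under ad libitum feeding it was -0.03, -0.12, -0.11, 0.10, 0.01 and 0.12. Over all genes at 1 CPM or more, the same median was -0.09, -0.08, 0.01, -0.001, -0.05 and -0.08 under night-restricted feeding. Over those genes it was 0.08, 0.08, -0.03, -0.11, -0.01 and 0.08 under arrhythmic feeding. The secretory genes and all genes thus had the same sign at ZT02 and ZT06 in both paradigms. The night-restricted groups at ZT02, ZT06 and ZT22 each hold a library of large GC slope, and replicate 1 alone stood at -0.64, -0.63 and -0.79 there. Without those libraries the night-restricted medians were -0.07 at ZT02, -0.19 at ZT06 and 0.17 at ZT22. ZT22 thus changed from below to above the mean and became the highest time. By role, the night-restricted median of the COPII coat was -0.51 at ZT02, -0.56 at ZT06, 0.04 at ZT10, 0.28 at ZT14, -0.01 at ZT18 and -0.39 at ZT22. Without the libraries of large GC slope it was -0.22 at ZT02, -0.25 at ZT06 and 0.07 at ZT22. SRP and its receptor stood at -0.50, -0.71, 0.03, 0.31, -0.04 and -0.40 from ZT02 to ZT22, and without those libraries at -0.13, -0.41 and 0.12 at ZT02, ZT06 and ZT22. The COPI coat lay between -0.10 at ZT06 and 0.16 at ZT18, and the oligosaccharyltransferase between -0.14 at ZT06 and 0.11 at ZT18. Without those libraries, COPI lay between -0.06 and 0.16 and the oligosaccharyltransferase between -0.11 and 0.19. These medians carry no test. In bulk liver, fewer cells of a type and less RNA per cell cannot be told apart.

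**Figure D1:**
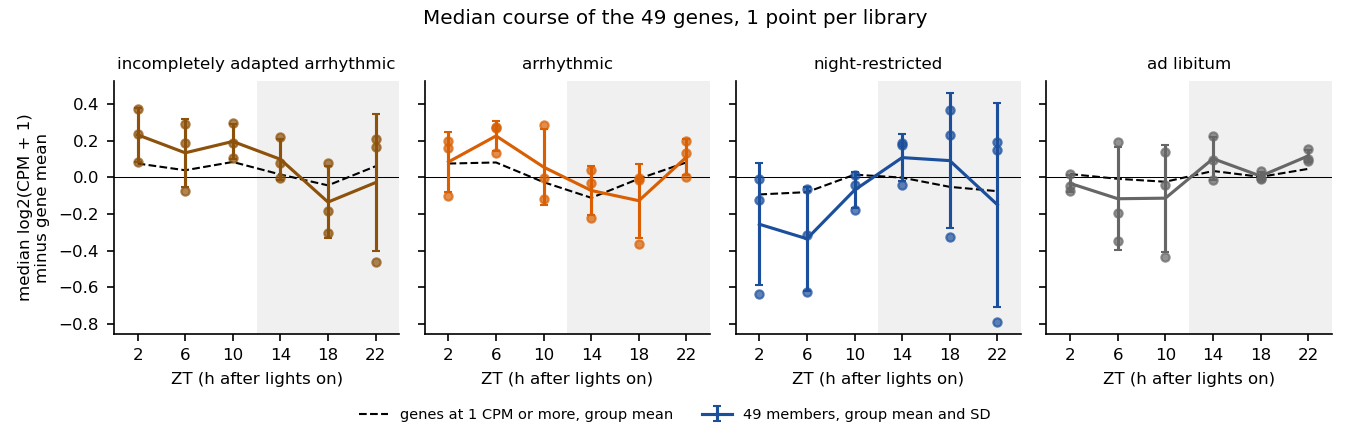
Median course of the 49 secretory genes in each feeding paradigm: the y axis is the median log2(CPM + 1) minus each gene's own mean, the x axis the ZT in h, points are single libraries, lines and bars the group mean and SD (n = 3), dashed lines all genes at 1 CPM or more, and grey the dark phase. The lowest points are replicate 1 at ZT22 (-0.79), ZT02 (-0.64) and ZT06 (-0.63) under night-restricted feeding, and the arrhythmic course is highest at ZT06 (0.23).

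The genes did not share a single course under night-restricted feeding. Their fitted peaks, from a 24 h cosine fitted to each gene, fell in the dark for 9 of 49 members under incompletely adapted arrhythmic, for 11 under arrhythmic, for 41 under night-restricted and for 32 under ad libitum feeding. Peaks in the dark were not counted over all genes. Of the 8 night-restricted members with a peak in the light, 5 peaked between ZT0 and ZT4, among them Cope (ZT1.1) and Copz1 (ZT1.7), small COPI subunits. The 3′ ends of those 5 had a median GC content of 49.9%, against 43.5% for the 22 that peaked from ZT12 to ZT18 and 43.2% for the 19 that peaked later in the night. The part of base composition in these peak times was not tested.

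**Figure D2:**
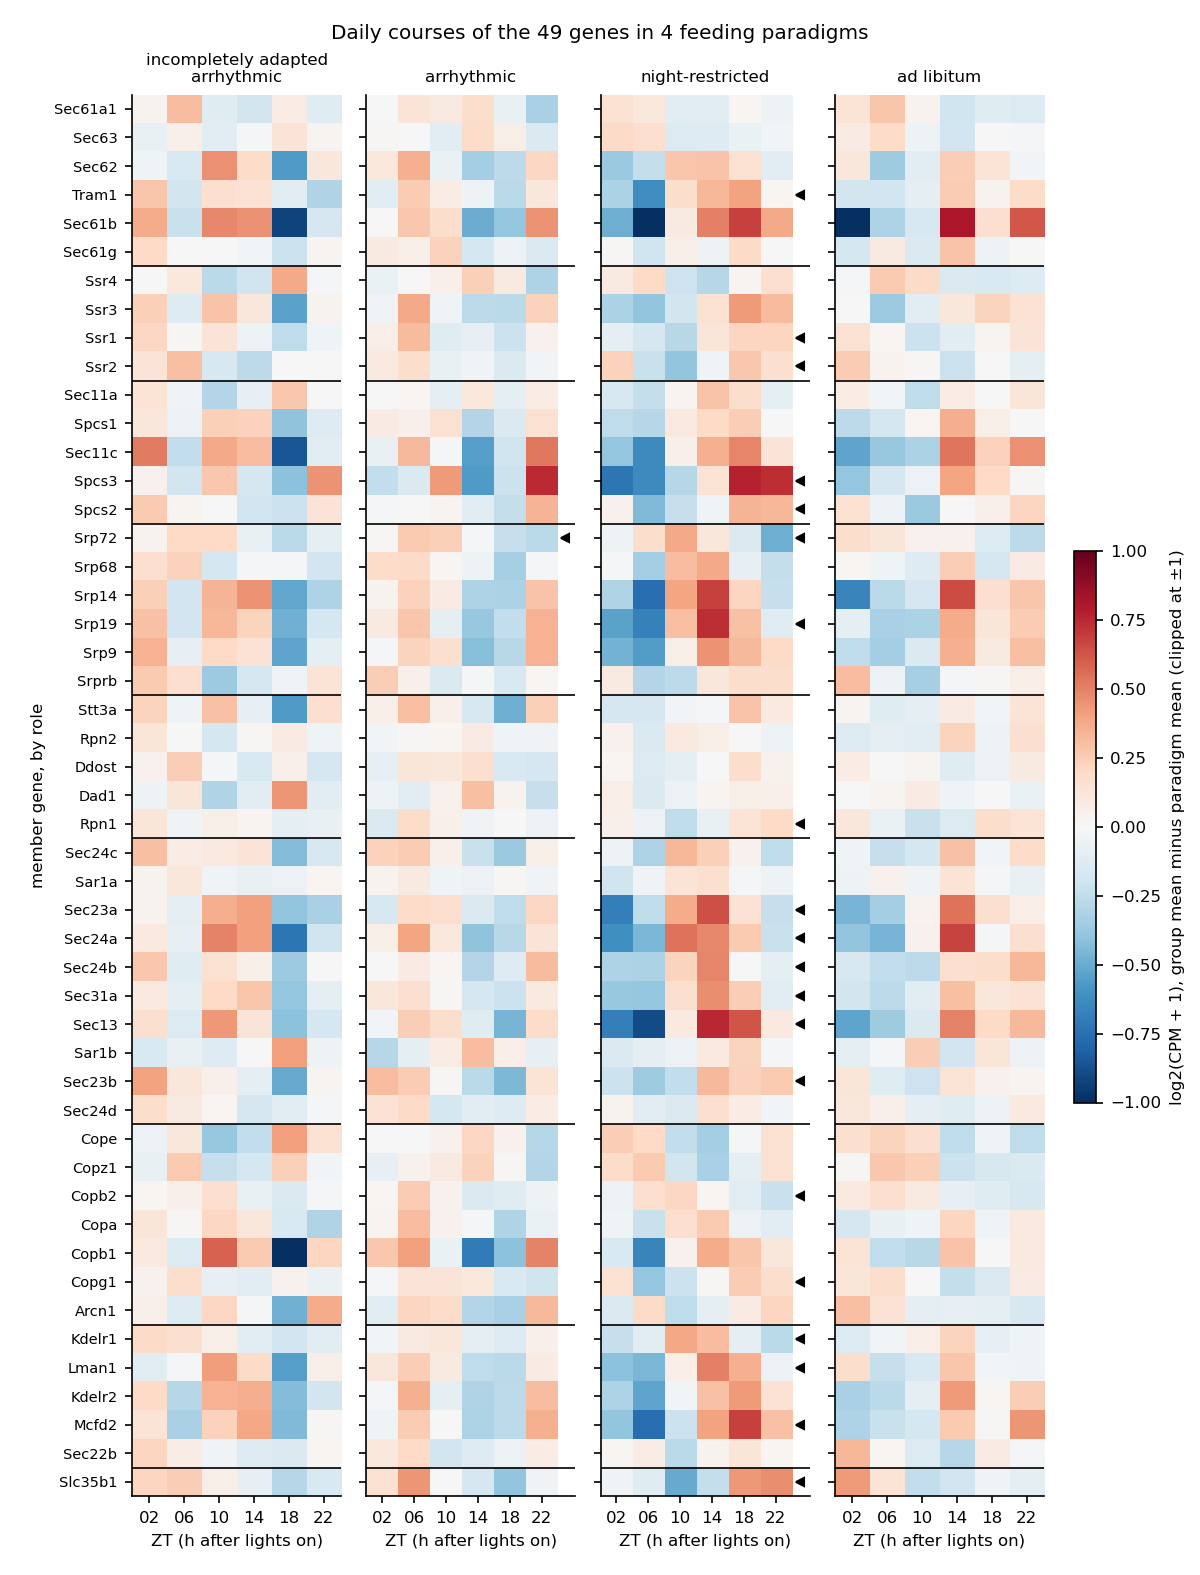
Daily course of each secretory gene: rows are genes by role, columns are ZT in h within each of the 4 feeding paradigms, and colour is the group mean of log2(CPM + 1) minus that gene's paradigm mean, clipped at 1 in either direction. Triangles mark genes with a 24 h rhythm past the test, of which 1 (Srp72) is under arrhythmic feeding, 20 are under night-restricted feeding and none are in the other 2 paradigms.

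A 24 h rhythm was called where the cosine and sine terms of a gene passed edgeR's quasi-likelihood F test at a Benjamini-Hochberg false discovery rate of 0.05 over all 12712 genes tested. Under night-restricted feeding 20 of the 49 secretory genes passed, against 29.9% of all genes. Their fitted range, the log2 difference between its peak and its trough, had a median of 0.66 over all 49 members (0.03 to 1.86), against a median of 0.71 over all genes tested, and noise alone gives a range above 0. Of the 20, 3 peaked between ZT8 and ZT12 (Copb2, Srp72 and Kdelr1), 9 between ZT12 and ZT18, and 8 between ZT18 and ZT24. The other 29 did not pass, and 7 of them had an unadjusted p under 0.05, since 27 members did in all. Times printed below for single genes were chosen after their values were seen. A lack of overlap between them is therefore a description and adds no test. Sec62, for example, had no overlap between ZT10 and ZT18 under incompletely adapted arrhythmic feeding, where no member passed.

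In the COPII coat 6 of 10 genes had a rhythm under night-restricted feeding. Sec13, a subunit of the outer cage, had 2.57, 12.1 and 12.6 CPM at ZT02 and 2.10, 14.6 and 6.49 CPM at ZT06, in the order of replicates 1 to 3. It had 25.1, 26.9 and 27.2 CPM at ZT14, 6.99, 34.2 and 31.1 CPM at ZT18 and 2.45, 19.9 and 26.8 CPM at ZT22. All 3 libraries at ZT14 stood above all 6 at ZT02 and ZT06, and replicate 1 was low at ZT18 and ZT22. The fitted range of Sec13 was 1.77 ± 0.39 (SE) with a peak at ZT16.1 (adjusted p = 0.00184), and it was 1.34 without the 5 libraries of largest GC slope (adjusted p = 0.0231).
Sec23a, the inner-coat subunit that activates the SAR1 GTPase, had 20.4, 40.7 and 43.1 CPM at ZT02 and 77.1, 93.9 and 94.5 CPM at ZT14, with no overlap. Its range was 1.19 ± 0.27 with a peak at ZT13.6 (adjusted p = 0.00254), and without the 5 libraries the adjusted p was 0.0701. Its close relative Sec23b, whose loss of function causes a congenital anaemia in humans, had its peak at ZT18.3 (range 0.77 ± 0.18, adjusted p = 0.00369).
Sec24a (ZT13.9, range 1.21 ± 0.37, adjusted p = 0.0321) and Sec24b (ZT14.1, 0.78 ± 0.25, 0.0342) encode cargo-binding subunits. Sec31a, the partner of Sec13 in the outer cage, peaked at ZT15.0 (0.85 ± 0.23, 0.0103). None of Sec24a, Sec24b and Sec31a passed without the 5 libraries of largest GC slope (adjusted p = 0.313, 0.222 and 0.152). The 4 COPII genes that did not pass were Sar1a, Sar1b, Sec24c and Sec24d, and Sar1b (0.29 ± 0.22, adjusted p = 0.531) and Sec24d (0.20 ± 0.14, 0.497) were among the 6 members of largest p at 10 CPM or more.

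Slc35b1, an exchanger that brings ATP into the ER lumen in return for ADP, had the smallest p of all members. It had 49.5, 43.1 and 53.7 CPM at ZT02, 26.5, 33.8 and 44.8 CPM at ZT10, 59.4, 76.9 and 67.6 CPM at ZT18 and 61.5, 86.1 and 61.0 CPM at ZT22. The libraries of ZT18 and ZT22 all stood above those of ZT10, and replicate 1 did not stand apart at ZT22. The fitted range was 1.01 ± 0.17 with a peak at ZT21.6 (adjusted p = 3.05e-05), and 1.03 without the 5 libraries of largest GC slope (adjusted p = 4.95e-05).

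In the signal peptidase 2 of 5 genes passed, Spcs2 and Spcs3, both accessory subunits. Spcs2 had 32.3, 64.2 and 52.7 CPM at ZT06, 53.6, 98.4 and 107.7 CPM at ZT18 and 41.3, 86.0 and 130.2 CPM at ZT22 under night-restricted feeding. Replicate 1 was the lowest of the 3 at each of these times. Its range was 0.79 ± 0.16 with a peak at ZT20.2 (adjusted p = 0.000663), and 0.86 without the 5 libraries (0.000147). Spcs3 had the largest range of all members, 1.86 ± 0.50 with a peak at ZT18.6 (adjusted p = 0.00912), on low counts: 1.93, 2.80 and 2.69 CPM at ZT02, against 2.27, 14.2 and 9.86 CPM at ZT18. The groups overlapped through replicate 1.

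In SRP and its receptor 2 of 6 genes passed, with peaks apart in time. Srp72, which with SRP68 forms the largest protein part of the particle, had 121.4, 149.6 and 135.6 CPM at ZT10 and 74.7, 82.1 and 64.9 CPM at ZT22. No library overlapped, and the peak was in the light, at ZT9.1 (range 0.66 ± 0.15, adjusted p = 0.00169). Srp19, which binds the SRP RNA and helps SRP54 assemble on it, had 9.49, 45.9 and 49.8 CPM at ZT02 and 84.2, 86.9 and 87.7 CPM at ZT14. Its peak was at ZT14.9 (1.35 ± 0.37, adjusted p = 0.0123), and it did not pass without the 5 libraries (0.154).

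The TRAP complex had 2 of 4 genes past the test. Ssr2 had 106.4, 93.2 and 102.9 CPM at ZT10 and 165.4, 152.4 and 162.1 CPM at ZT18, with no overlap and a peak at ZT21.8 (range 0.73 ± 0.17, adjusted p = 0.00456). Ssr1 peaked at ZT19.7 (0.51 ± 0.13, 0.00881). Ssr3 had the largest range of the 4, 0.85 ± 0.30, and did not pass (0.0642). In the oligosaccharyltransferase 1 of 5 passed, Rpn1, a subunit that helps present certain substrates. Rpn1 peaked at ZT22.2 (0.47 ± 0.11, adjusted p = 0.00387), the largest range of its complex. Rpn2 (0.03 ± 0.15, adjusted p = 0.989) and Dad1 (0.26 ± 0.24, 0.648), also of that complex, had the 2 largest p values among members at 10 CPM or more.

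Among translocon genes 1 of 6 passed, Tram1, a membrane protein that contacts nascent chains (ZT16.1, range 0.92 ± 0.28, adjusted p = 0.0321, and 0.146 without the 5 libraries). Sec61b, the small beta subunit of the channel, had the largest range of the 6, 1.71 ± 0.74, and did not pass (0.177). It had 1.77, 18.03 and 44.3 CPM at ZT02 and 3.67, 84.4 and 60.3 CPM at ZT18, so the times overlapped. Reads of Sec61b may be shared, since the last 300 bases of its transcript hold 153 words of 50 bases also found in Gm10320 (mean of 41.0 CPM for Sec61b and 12.3 for Gm10320). Sec61g (0.24 ± 0.21, 0.606) likewise shares 368 such words with Gm10177, with a mean of 11.1 CPM for Sec61g and 594 for Gm10177, so its values are uncertain. Sec11a shares 232 with Nmb, which overlaps its 3′ end on the same strand. Sec61a1, the channel-forming subunit, had the highest mean of all members, 1598 CPM, and did not pass the test; Copz1 (293 CPM) and Kdelr1 (270.1 CPM) came next in mean CPM.

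In the COPI coat 2 of 7 passed. Copg1, a subunit of the inner coat that binds cargo tails, had 16.0, 20.1 and 13.8 CPM at ZT06 and 30.4, 23.5 and 25.5 CPM at ZT18 (range 0.69 ± 0.19, peak ZT20.8, adjusted p = 0.0191). Copb2, of the outer coat, peaked at ZT8.1 with a range of 0.39 ± 0.13 (0.0366). Neither passed without the 5 libraries (adjusted p = 0.0716 for Copg1 and 0.120 for Copb2). Copb1 had the largest range of the coat, 0.90 ± 0.44, and did not pass (0.246), and Arcn1 (0.36 ± 0.27, 0.530) shares 3′ repeat sequence with 300 other genes.

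Of the cargo and retrieval genes 3 of 5 passed. Mcfd2, which with LMAN1 carries clotting factors V and VIII out of the ER in humans, had 31.4, 66.9 and 66.9 CPM at ZT02 and 88.6, 94.6 and 105.9 CPM at ZT14. Its range was 1.38 ± 0.32 with a peak at ZT17.6 (adjusted p = 0.00318, and 0.00575 without the 5 libraries). Lman1 peaked at ZT15.6 (0.96 ± 0.26, 0.0120), and its adjusted p was 0.121 without the 5 libraries. Kdelr1, a receptor that returns ER chaperones, had 156.8, 250.5 and 255.8 CPM at ZT02 and 358.4, 345.1 and 313.7 CPM at ZT10, with no overlap, and peaked at ZT11.7 (0.63 ± 0.15, 0.00245).

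**Figure D3:**
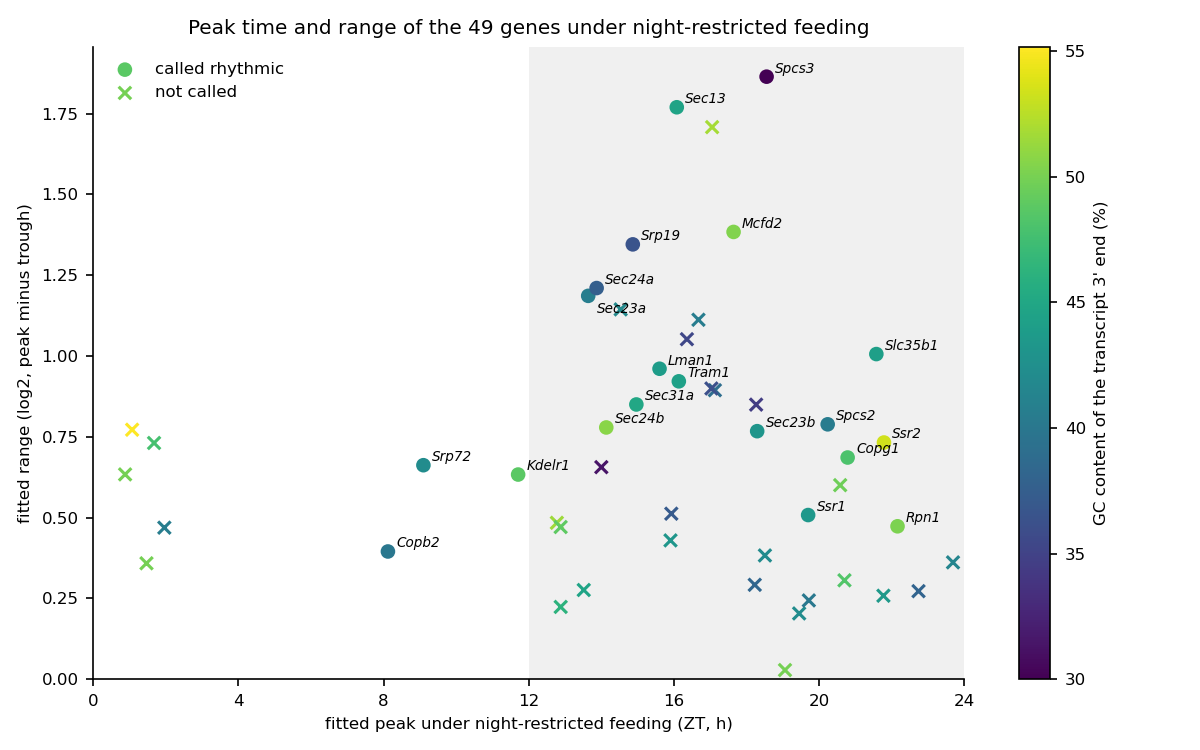
Fitted peak (x axis, ZT in h) and fitted range (y axis, log2) of the 49 secretory genes under night-restricted feeding: circles passed the test of a 24 h rhythm, crosses did not, colour is the GC content of the transcript 3′ end in percent, and grey is the dark phase. Of the 20 circles 17 lie in the dark phase, and Spcs3 (1.86) and Sec13 (1.77) have the largest ranges.

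Without the 5 libraries of largest GC slope 12 members passed under night-restricted feeding, of which 11 were among the 20: Kdelr1, Mcfd2, Rpn1, Sec13, Sec23b, Slc35b1, Spcs2, Spcs3, Srp72, Ssr1 and Ssr2. With the GC slope as a covariate 24 passed, 18 of them among the 20, where Sec24b and Tram1 were the ones lost. Fitted to night-restricted libraries alone, 7 passed. Shares of all genes are not given for these fits, so the changes in count are not read as particular to the secretory genes. Without replicate 1, 2 or 3 at every time, 16, 10 and 12 members passed. The shares of all genes there were 17.6%, 18.2% and 20.8%, against 29.9% in the main fit.

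Under the other 3 paradigms almost no member passed. Under incompletely adapted arrhythmic feeding the count was 0 of 49 (3.63% of all genes), with 6 at an unadjusted p under 0.05 and a smallest adjusted p of 0.147. Under arrhythmic feeding it was 1 of 49 (3.37%), with 9 at an unadjusted p under 0.05, and under ad libitum feeding 0 of 49 (7.48%), with 11 at an unadjusted p under 0.05 and a smallest adjusted p of 0.0654. DESeq2's likelihood-ratio test gave 0 under incompletely adapted arrhythmic, 2 under arrhythmic, 22 under night-restricted and 2 under ad libitum feeding. Median fitted ranges were 0.36 (0.04 to 0.79) under incompletely adapted arrhythmic, 0.37 (0.05 to 1.03) under arrhythmic, 0.66 under night-restricted and 0.42 (0.06 to 1.46) under ad libitum feeding.
The member that passed under arrhythmic feeding was Srp72, with 140.9, 140.4 and 122.4 CPM at ZT06 and 103.8, 82.8 and 91.8 CPM at ZT22 (range 0.62 ± 0.15, peak ZT9.3, adjusted p = 0.0162). Its peak was 0.21 h later than under night-restricted feeding, and the difference between the paradigms did not pass (adjusted p = 0.978, range difference -0.04 ± 0.21). Without the arrhythmic library of ZT22 replicate 2 the adjusted p of Srp72 under arrhythmic feeding was 0.0550.
Under ad libitum feeding the members nearest to the threshold were Rpn1 (ZT22.2, range 0.38 ± 0.11, adjusted p = 0.0654), Sec23a (ZT15.3, 0.89 ± 0.27, 0.0780), Slc35b1 (ZT2.4, 0.54 ± 0.17, 0.0822) and Sec22b (ZT1.4, 0.44 ± 0.14, 0.0853), the last a SNARE of ER-Golgi vesicles, and these 4 were chosen after their values were seen.

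The rhythm itself was compared between paradigms by testing whether both the cosine and the sine term were equal. Arrhythmic and night-restricted feeding differed for 6 of the 49 secretory genes, Slc35b1, Sec23b, Rpn1, Copg1, Ssr1 and Sec13, against 3.89% of all genes. All 6 had the smaller fitted range under arrhythmic feeding, and their fitted peaks lay 8.7 to 10.6 h apart. Of the 495 genes of the whole table that passed, 461 had the smaller range under arrhythmic feeding (3.63% of all genes). Over all 49 members the range was smaller under arrhythmic feeding in 40, and peaks lay more than 6 h apart in 36. Neither count was made over all genes, so neither is read as particular to the secretory genes.

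Slc35b1 had 53.6, 80.0 and 66.5 CPM at ZT06 under arrhythmic feeding, against 45.8, 42.3 and 49.7 CPM under night-restricted feeding. At ZT18 it had 43.7, 34.2 and 32.7 CPM under arrhythmic feeding, against 59.4, 76.9 and 67.6 CPM under night-restricted feeding. The order of the paradigms was turned round between the times with no overlap at either. The range was 0.58 under arrhythmic and 1.01 under night-restricted feeding, a difference of -0.42 ± 0.24, and the arrhythmic peak (ZT6.3) was 8.7 h later than the night-restricted one (adjusted p = 0.000688). This difference passed in all 9 alternative fits to the whole set of replicate numbers and without each of the 72 libraries in turn. It did not pass without replicate 2 at every time (adjusted p of Slc35b1 0.156), where 0 of the 49 members did.

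Sec23b had 16.5, 19.96 and 14.6 CPM at ZT06 under arrhythmic feeding, against 7.98, 13.2 and 8.28 CPM under night-restricted feeding. At ZT18 it had 8.76, 10.8 and 10.7 CPM under arrhythmic feeding, against 10.3, 19.1 and 16.3 CPM under night-restricted feeding, which overlapped through replicate 1. Ranges were 0.61 under arrhythmic and 0.77 under night-restricted feeding, a difference of -0.16 ± 0.26, smaller than its error (adjusted p = 0.00476). The groups did not overlap at ZT06. Fitted peaks were at ZT4.3 under arrhythmic and ZT18.3 under night-restricted feeding.

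Rpn1 had 313.7, 308.0 and 319.1 CPM at ZT06 under arrhythmic feeding, against 179.9, 224.2 and 274.8 CPM under night-restricted feeding. At ZT22 it had 299.1, 233.0 and 263.9 CPM under arrhythmic feeding, against 191.8, 296.8 and 324.6 CPM under night-restricted feeding. The groups did not overlap at ZT06 and overlapped at ZT22. The range was 0.32 under arrhythmic and 0.47 under night-restricted feeding, a difference of -0.15 ± 0.16, and the peak was 10.4 h earlier under arrhythmic feeding (adjusted p = 0.00883).

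Copg1 had 27.8, 21.2 and 26.1 CPM at ZT06 under arrhythmic feeding, against 16.0, 20.1 and 13.8 CPM under night-restricted feeding. At ZT18 it had 21.2, 21.7 and 18.3 CPM under arrhythmic feeding, against 30.4, 23.5 and 25.5 CPM under night-restricted feeding, again turned round with no overlap at either time. The range difference was -0.17 ± 0.27 and the peak was 10.1 h earlier under arrhythmic feeding (adjusted p = 0.0233, and 0.104 without the 5 libraries of largest GC slope).
Ssr1 had 109.9, 117.4 and 95.4 CPM at ZT06 under arrhythmic feeding, against 58.6, 74.7 and 80.2 CPM under night-restricted feeding, with no overlap. The ZT18 libraries had 73.5, 74.3 and 74.2 CPM under arrhythmic feeding, against 61.1, 109.6 and 108.4 CPM under night-restricted feeding, which overlapped through replicate 1. The range difference was -0.26 ± 0.19 with the arrhythmic peak 10.6 h later (adjusted p = 0.0334). Sec13 had 30.9, 23.65 and 18.9 CPM at ZT06 under arrhythmic feeding, against 2.10, 14.6 and 6.49 CPM under night-restricted feeding. Its libraries at ZT18 had 7.30, 17.97 and 18.3 CPM under arrhythmic feeding, against 6.99, 34.2 and 31.1 CPM under night-restricted feeding. The groups did not overlap at ZT06 and overlapped through the first replicates at ZT18. Among the 6 its range difference was the largest, -1.35 ± 0.55, with 0.42 under arrhythmic and 1.77 under night-restricted feeding, and its adjusted p was 0.0476. It passed in 4 of 9 alternatives and without 34 of the 72 libraries, and without the 5 of largest GC slope it had an adjusted p of 0.139.
Next in order were Ddost (adjusted p = 0.0520), an oligosaccharyltransferase subunit with a range of 0.54 under arrhythmic and 0.31 under night-restricted feeding, and Ssr2 (0.0541), with 0.19 under arrhythmic and 0.73 under night-restricted feeding.

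**Figure D4:**
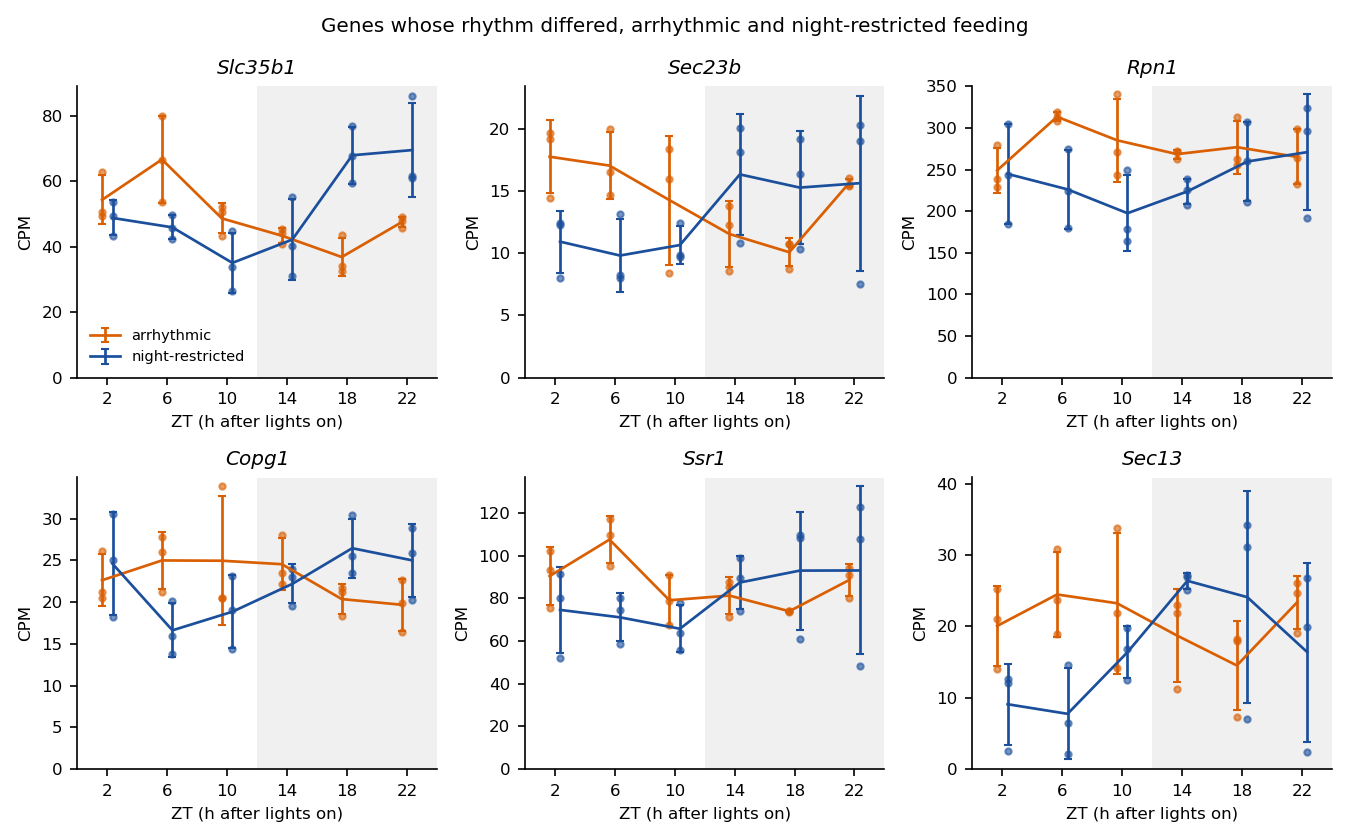
CPM (y axis) of the 6 secretory genes whose rhythm differed, at each ZT (x axis, h), under arrhythmic feeding (orange) and night-restricted feeding (blue): points are libraries, lines and bars the mean and SD (n = 3), and grey is the dark phase. Slc35b1 is higher at ZT06 under arrhythmic feeding (53.6 to 80.0 CPM, against 42.3 to 49.7 CPM under night-restricted feeding) and lower at ZT18 (32.7 to 43.7 CPM, against 59.4 to 76.9 CPM under night-restricted feeding).

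Without the 5 libraries of largest GC slope 4 of the 6 still passed, Slc35b1, Sec23b, Rpn1 and Ssr1, and no other member did. Without all libraries of replicate 1 the count was 2 (Slc35b1 and Sec23b), without replicate 2 it was 0, and without replicate 3 it was 4 (Slc35b1, Sec23b, Rpn1 and Copz1). The shares of all genes were 0.275%, 0.0472% and 3.45% in that order. The count also moved with single libraries. It was 16 (9.83% of all genes) without replicate 1 at ZT18 under night-restricted feeding, the library with 6.99 CPM of Sec13. Without ZT10 replicate 2 under ad libitum feeding it was 10 (5.42%). It was 10 or 11 (6.17% to 6.69%) without replicates 2 or 3 at ZT02, 2 at ZT06 or 3 at ZT22 under night-restricted feeding. These shares stand against 3.89% in the main fit. Fitted to these 2 paradigms alone, 2 passed, Slc35b1 and Sec23b. The mean GC slope of the groups was -0.0117 under arrhythmic and 0.0651 under night-restricted feeding.

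Incompletely adapted arrhythmic and night-restricted feeding differed for 2 members, Slc35b1 and Sec23b, against 0.614% of all genes. Both had the smaller range under incompletely adapted arrhythmic feeding, as had 72 of the 78 genes that passed (0.566% of all genes). Slc35b1 had 66.7, 63.8 and 51.1 CPM at ZT06 under incompletely adapted arrhythmic feeding, against 45.8, 42.3 and 49.7 CPM under night-restricted feeding. At ZT18 it had 41.7, 46.1 and 37.1 CPM under incompletely adapted arrhythmic feeding, against 59.4, 76.9 and 67.6 CPM under night-restricted feeding. Neither time overlapped. Ranges were 0.44 and 1.01 in that order, with the peak 8.3 h later under incompletely adapted arrhythmic feeding (adjusted p = 0.00620).
Sec23b had 25.8, 19.7 and 17.0 CPM at ZT02 under incompletely adapted arrhythmic feeding, against 8.04, 12.4 and 12.3 CPM under night-restricted feeding, with no overlap. At ZT18 it had 10.48, 9.80 and 11.7 CPM under incompletely adapted arrhythmic feeding, against 10.3, 19.15 and 16.3 CPM under night-restricted feeding, which overlapped. It had a range of 0.57 under incompletely adapted arrhythmic and 0.77 under night-restricted feeding, with the peak 9.8 h later (adjusted p = 0.0136). Both arrhythmic paradigms were set against the same night-restricted libraries, so these results and those of arrhythmic feeding are not independent. Over all members the range was smaller under incompletely adapted arrhythmic than under night-restricted feeding in 42, and peaks lay more than 6 h apart in 24. These counts, too, were not made over all genes. Neither gene passed, and no other member did, without replicate 1, 2 or 3 at every time, in the fit to these 2 paradigms alone, or with time as a factor. Shares of all genes without replicate 1, 2 or 3 were 0.307%, 0.00787% and 0.0236%. Leaving out only replicate 1 at ZT18 under night-restricted feeding gave 5 members (2.1% of all genes), and replicate 1 at ZT22 there gave 4 (1.45%).

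The remaining pairs gave no member past edgeR's test. Between night-restricted and ad libitum feeding the count was 0 of 49 (0% of all genes), 4 at an unadjusted p under 0.05 and 0 in DESeq2, with a smallest adjusted p of 0.228 for Slc35b1, whose range was 1.01 under night-restricted and 0.54 under ad libitum feeding. The fitted range was smaller under night-restricted feeding in 8 of 49, and peaks lay more than 6 h apart in 8. These counts have no test and no like count over all genes. Between arrhythmic and ad libitum feeding it was 0 of 49 (0.0236% of all genes), 5 at an unadjusted p under 0.05 and 1 in DESeq2, with a smallest adjusted p of 0.142 for Rpn1, whose fitted peaks lay 10.4 h apart. Between incompletely adapted arrhythmic and arrhythmic feeding it was 0 of 49 (0% of all genes), 1 at an unadjusted p under 0.05 and 0 in DESeq2, with a smallest adjusted p of 0.942.

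The mean level over the day differed for 6 members between incompletely adapted arrhythmic and night-restricted feeding, against 18% of all genes. Lower under incompletely adapted arrhythmic feeding were 4 (11.2% of all genes), Ssr4, Cope, Ssr2 and Dad1, and higher were 2 (6.85% of all genes), Sec62 and Rpn1. Ssr4, the delta subunit of TRAP, ran from 170.9 to 315.0 CPM (median 203.9) under incompletely adapted arrhythmic feeding, against 201.1 to 502.9 CPM (median 246.9) under night-restricted feeding. The ranges overlapped, and the difference was -0.52 ± 0.14 on the log2 scale (adjusted p = 0.00870). Its 4 highest night-restricted libraries were all replicate 1, at ZT02 (428.9 CPM), ZT06 (502.9), ZT18 (393.9) and ZT22 (491.9).
Sec62, which helps Sec61 take up chains after translation, ran from 96.5 to 359.4 CPM (median 219.4) under incompletely adapted arrhythmic feeding, against 41.1 to 259.8 CPM (median 149.6) under night-restricted feeding (0.51 ± 0.15, adjusted p = 0.0152). Ssr2, the beta subunit of TRAP, ran from 83.4 to 164 CPM (median 104.7) under incompletely adapted arrhythmic feeding, against 93.2 to 178 CPM (median 137) under night-restricted feeding (-0.38 ± 0.09, 0.00279). Cope (-0.44 ± 0.15, 0.0331), Dad1 (-0.36 ± 0.12, 0.0294) and Rpn1 (0.18 ± 0.06, 0.0231) completed the 6, and the libraries of both paradigms overlapped for each. Without the 5 libraries of largest GC slope 0 of the 49 members passed edgeR's test. With the GC slope as a covariate only Ssr2 did (-0.24, adjusted p = 0.0300). The GC content of the 3′ end was 43.5% for Dad1, 49.9% for Ssr4, 53.3% for Ssr2 and 55.2% for Cope, which were lower, and 31.3% for Sec62 and 50.2% for Rpn1, which were higher.

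**Figure D5:**
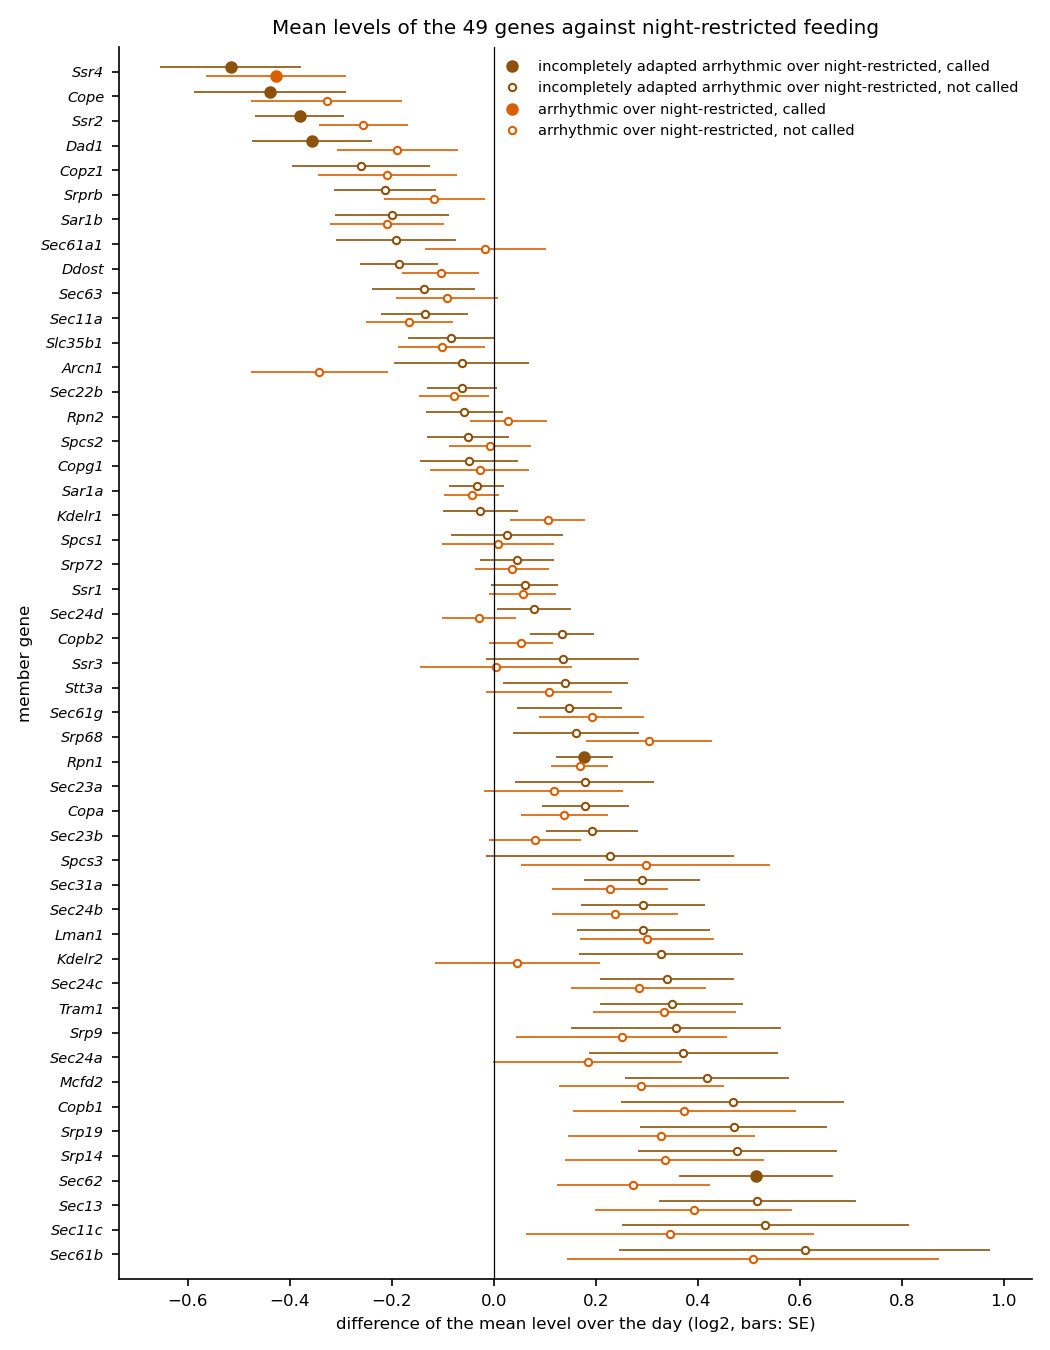
Difference of the mean level over the day (x axis, log2, bars SE) for each of the 49 secretory genes (y axis): incompletely adapted arrhythmic over night-restricted feeding in brown and arrhythmic over night-restricted feeding in orange, with filled points past the test. Ssr4 is lowest in both (-0.52 and -0.43), and 30 members lie above 0 and 19 below for incompletely adapted arrhythmic feeding.

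Between arrhythmic and night-restricted feeding 1 member differed in mean level, Ssr4 (-0.43 ± 0.14, adjusted p = 0.0463), against 6.92% of all genes. It did not pass without the 5 libraries of largest GC slope (0.681). Between night-restricted and ad libitum feeding 2 did, against 1.62% of all genes: Ssr2 was higher under night-restricted feeding by 0.34 ± 0.09 (adjusted p = 0.0215), and Copb2 was lower by 0.27 ± 0.06 (difference -0.27, adjusted p = 0.00982). Copb2 ran from 43.9 to 101 CPM (median 74.9) under night-restricted feeding, against 71.9 to 127 CPM (median 96.7) under ad libitum feeding, with overlap. Ssr2 did not pass without the 5 libraries of largest GC slope (0.105), and Copb2 did (0.0341).

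No member had a 12 h component that passed edgeR's test, in a model with 24 h and 12 h terms, and DESeq2 gave 0 in every paradigm too. At an unadjusted p under 0.05 there were 4 members under incompletely adapted arrhythmic, 1 under arrhythmic, 0 under night-restricted and 0 under ad libitum feeding. The shares of all genes were 0% under incompletely adapted arrhythmic, 0% under arrhythmic, 0% under night-restricted and 0.00787% under ad libitum feeding.

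Other genes of the same pathways were counted from lists by role. Of 22 tested genes for other translocation steps, 4 passed the rhythm test under night-restricted feeding and 0 in the other 3 paradigms, and the rhythm of 1 differed between arrhythmic and night-restricted feeding. Of 45 other N-glycosylation genes, which build and trim the sugar tree, 13 passed under night-restricted and 2 under ad libitum feeding, and 3 differed between arrhythmic and night-restricted feeding. Of 46 other genes of transport between the ER and the Golgi, 1 passed under incompletely adapted arrhythmic, 0 under arrhythmic, 22 under night-restricted and 3 under ad libitum feeding, and 1 differed between arrhythmic and night-restricted feeding. Of 25 genes of ER folding and stress, such as chaperones, 2 passed under incompletely adapted arrhythmic, 1 under arrhythmic, 16 under night-restricted and 1 under ad libitum feeding, and 9 differed between arrhythmic and night-restricted feeding. Their median night-restricted range was 0.97. The mean level differed between incompletely adapted arrhythmic and night-restricted feeding for 3 of the translocation genes, 12 of the N-glycosylation genes, 8 of the transport genes and 3 of the folding and stress genes. All these counts stand against the shares of all genes given above.

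The genes whose courses over the 24 groups were most like the median course of the secretory genes were Prrg2 (Pearson r = 0.94), Psmb7 (0.93), Ganab (0.93), Erp44 (0.93) and Pdlim5 (0.92), among 6418 genes at 10 CPM or more. GANAB trims glucose from new N-linked sugars and ERP44 retains proteins in the early secretory pathway. The 24 groups share libraries across genes, so these values are descriptions.

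Markers of other cell types overlapped between all 4 paradigms. Kupffer cell markers summed to medians of 812, 878, 845 and 918 CPM under incompletely adapted arrhythmic, arrhythmic, night-restricted and ad libitum feeding, endothelial markers to 248, 236, 262 and 262, stellate markers to 182, 183, 164 and 157, cholangiocyte markers to 18.8, 17.1, 15.3 and 18.5, and B and plasma cell markers to 5.93, 5.89, 5.25 and 5.96 CPM. The cholangiocyte sum was nearly all Sox9 (mean 17.7 CPM). Pancreatic acinar markers, of a tissue rich in secretory machinery, summed to 76.5, 79.7, 113 and 88.4 CPM, nearly all from Cela1 (mean 94.4 CPM). Cela1 passed the test as lower in mean level under both arrhythmic paradigms than under night-restricted feeding. The acinar marker Prss1 was at 0 in every library, and Cpa1 and Pnlip had means of 0.028 and 0.105 CPM. Summed acinar markers ran from 47.3 to 154 CPM under arrhythmic and from 59.6 to 262 CPM under night-restricted feeding, and their part in the results was not tested.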

How the data were processed

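Mouse liver in 72 samples was profiled by 3′ mRNA sequencing (Lexogen QuantSeq, TRIzol RNA, per the labels' protocols). The authors deposited raw read counts per gene after alignment with STAR 2.4.2a, and the genome builds listed are GRCm38.p5 and mm10, per the submitters' processing notes. The sources used here do not name the counting tool, strand setting or annotation release, so reads of antisense or overlapping partners cannot be told apart. A second deposited table was not used because it equals the first, scaled to library totals. Of 51912 gene identifiers 51719 had a symbol in GENCODE M21, and the others held 0.00309% of the counts. The closest pair of replicates differed by 13.8 or more in chi-square per gene, so none was counted as a duplicate.

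Groups were taken from the labels. Counts were scaled by TMM, filtered with filterByExpr over the 24 groups (12712 genes kept) and fitted by edgeR 4.0.16 (robust quasi-likelihood, R 4.3.3, limma 3.58.1) with a mean and 24 h cosine and sine terms for each feeding paradigm over all 72 libraries. A 12 h pair of terms was added for the 12 h test. P-values were adjusted by Benjamini-Hochberg over all genes tested, with 0.05 as the threshold. Ranges and their SE are on the log2 scale and come from the fit, and CPM are counts scaled to the library total. In simulated data of 12712 genes with 200 given a rhythm under night-restricted feeding alone, the test found 0.5% of them at a range of 0.5, 60% at 1 and 94% at 2. The difference between arrhythmic and night-restricted feeding was found for 0% at a range of 0.5, 16% at 1 and 82% at 2. The simulated libraries held no GC slope and no effect of replicate number. They also held fewer rhythmic genes than the data, where 29.9% passed under night-restricted feeding. These shares therefore do not apply to the data as they stand.

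Members, lists and roles were chosen with earlier results of these data known. Named with values were members whose rhythm differed between arrhythmic and night-restricted feeding, the largest night-restricted range in each role, the 3 highest mean CPM, the 6 largest p values not called under night-restricted feeding at 10 CPM or more, up to 6 members past another test, and the 5 most similar genes; other members are also named where they passed the rhythm test. Shared 3′ sequence was counted as words of 50 bases in the last 300 bases, and reported at 100 or more. Alternatives were RLE scaling, no filter, the GC slope as a covariate, leaving out 5 libraries of extreme slope, the replicate number as a block with and without the covariate, separate fits, time as a factor, DESeq2 1.42.0 and leaving out each library or replicate number. Tables and figures were made with Python 3.11.15, numpy 2.4.6, pandas 2.3.3 and matplotlib 3.10.9.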

Additional observations from a re-analysis of the deposited data

Results flagged for a closer look

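In the edgeR test of the difference itself, arrhythmic and night-restricted feeding gave 6 secretory genes different rhythms. The adjusted p was 0.00068786 for Slc35b1, 0.0047606 for Sec23b, 0.0088274 for Rpn1, 0.0233 for Copg1, 0.033386 for Ssr1 and 0.047618 for Sec13. Slc35b1, Sec23b and Rpn1 passed without each of the 72 libraries in turn, Copg1 without 70, Ssr1 without 64 and Sec13 without 34. With all libraries of a replicate number left out, none of the 6 passed without replicate 2, only Slc35b1 and Sec23b passed without replicate 1, and only those and Rpn1 passed without replicate 3. The same test between incompletely adapted arrhythmic and night-restricted feeding, which uses the same night-restricted libraries, gave an adjusted p of 0.0061968 for Slc35b1 and 0.013555 for Sec23b, and neither passed without replicate 1, 2 or 3. Groups of 3 libraries are too small for a test of single outlying libraries.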

How the results depend on the processing

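Counts of secretory genes past the threshold are given here for rhythms (incompletely adapted arrhythmic, arrhythmic, night-restricted, ad libitum), for rhythm differences (incompletely adapted arrhythmic against night-restricted, arrhythmic against night-restricted, night-restricted against ad libitum, arrhythmic against ad libitum) and for mean levels (incompletely adapted arrhythmic against night-restricted, arrhythmic against night-restricted, night-restricted against ad libitum), in that order; they were 0, 1, 20 and 0, then 2, 6, 0 and 0, then 6, 1 and 2 as reported. With RLE scaling they were 0, 1, 21 and 0, then 2, 8, 0 and 0, then 7, 2 and 2. With no filter on low counts they were 0, 0, 15 and 0, then 1, 3, 0 and 0, then 3, 0 and 0. The GC slope, fitted as a covariate, gave 2, 5, 24 and 3, then 4, 12, 0 and 1, then 1, 1 and 5. Leaving out the 5 libraries of extreme GC slope gave 0, 3, 12 and 2, then 3, 4, 0 and 0, then 0, 0 and 1. Fitted only to the libraries compared they were 0, 0, 7 and 1, then 0, 2, 0 and 0, then 3, 0 and 1. Time as a factor of 6 levels gave 0, 0, 5 and 0, then 0, 1, 0 and 0. With the likelihood-ratio test of DESeq2 they were 0, 2, 22 and 2, then 4, 12, 0 and 1, then 11, 3 and 3. No alternative gave a rhythm difference between incompletely adapted arrhythmic and arrhythmic feeding or a 12 h component in any member. Where these counts moved, the cause was not tested. Shares of all genes are not given for these fits or for those with a replicate block. Changes in count are therefore not read as particular to the secretory genes.

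With a replicate block within each paradigm the counts were 0, 4, 27 and 4, then 7, 24, 0 and 1, then 19, 7 and 5, and with the replicate block and the GC slope together 4, 8, 25 and 6, then 9, 12, 1 and 1, then 1, 3 and 5. The labels do not say what a number shares, so the numbers were not taken as pairing and the main fit held no term for them. Not every same-numbered pair of libraries correlated above 0.1. Within a paradigm 130 of 180 same-numbered pairs did (median 0.328), against 105 of 360 pairs of other numbers (median -0.149). Between paradigms 251 of 648 same-numbered pairs did (median -0.036), against 544 of 1296 (median 0.0212). As a hint from the data, 51 of 72 libraries correlated best with their own number within their paradigm.

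Leaving out 1 library or 1 replicate number, rhythm counts ran from 0 to 1, 0 to 2, 10 to 28 and 0 to 5, rhythm differences from 0 to 5 and 0 to 16, with 0 in the other pairs, and mean levels from 0 to 33, 0 to 4 and 0 to 4. The count of 33, without replicate 3, was for incompletely adapted arrhythmic against night-restricted feeding. In that fit 49.0% of all genes passed, against 18% in the main fit. The arrhythmic rhythm count became 2 without ZT10 replicate 1 or 3 of arrhythmic feeding or ZT10 replicate 1 of incompletely adapted arrhythmic feeding. Shares of all genes there were 3.2%, 3.45% and 3.44%. The ad libitum count became 5 (10.2% of all genes) without its ZT06 replicate 3 and 2 (6.61%) without its ZT18 replicate 1. It became 1 (8.21%) without ZT22 replicate 1 of night-restricted feeding. The incompletely adapted arrhythmic count became 1 (4.47%) without its ZT06 replicate 3. The mean-level count against night-restricted feeding moved by over 1.5 times without 10 libraries for incompletely adapted arrhythmic and 55 for arrhythmic feeding. That of night-restricted against ad libitum feeding became 4 (3.6% of all genes) without ZT10 replicate 2 of ad libitum feeding. It became 1 (0.983%) without ZT02 replicate 1 of night-restricted feeding.

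With time as a factor, the range is the highest minus the lowest of the 6 time estimates, a measure unlike the cosine range. By that measure the range difference of Sec23b was 0.156 for incompletely adapted arrhythmic and 0.0705 for arrhythmic against night-restricted feeding. In cosine fits without each replicate number, the range difference of Sec23b ran from -0.56 to 0.19 for incompletely adapted arrhythmic feeding. For arrhythmic against night-restricted feeding it ran from -0.28 to 0.14. That of Copg1 for arrhythmic against night-restricted feeding ran from -0.71 to 0.13. Members of few reads, such as Spcs3 at a mean of 5.49 CPM, are least precise. Of alternative values for single called members 2908 kept direction and threshold, 269 kept direction only and 6 turned sign. The fitted range of a rhythm cannot fall below 0, so only rhythm differences and mean levels could turn sign.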
